A study of Homo sapiens with 18 samples.

Results

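The genes described here are 39 members of the amino acid and stress response governed by the transcription factor ATF4. They were chosen by name and sorted by role into 10 regulators, 13 stress effectors, 7 enzymes of amino acid synthesis and 9 amino acid transporters. All 39 were found, on 1 line each, among 19784 genes of the deposited tables. Of these, 38 reached the level needed for testing, and GDF15 (a secreted stress cytokine) did not, with at most 0.895 CPM (reads of the gene per M reads of the library) in any library.

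RNA was sequenced from THP-1, a human monocytic leukaemia line that carries the MLL-AF9 fusion, after poly(A) selection. A first experiment held 4 libraries each of PHF8 (THP-1 with added PHF8, a histone demethylase), F279S (THP-1 with a form of PHF8 known to lack catalytic activity) and wt, the parental line. A second, on day 3, held 2 libraries each of ERDD, ERPHF8 and ERAA, lines named for the genotypes PHF8DD, PHF8 and PHF8AA, whose letters the labels do not spell out. ERDD and ERAA carry the label 4-OHT (4-hydroxytamoxifen, 100 nM), while ERPHF8 carries no treatment label, so genotype and treatment cannot be told apart in either comparison with ERPHF8. All lines were grown in DMEM with fetal bovine serum, and the labels state neither the promoter behind the added forms nor whether a line is 1 clone or a pool. Nothing in the labels says that numbered libraries came from separate cultures, so every p-value measures only the spread between libraries, which may be technical.

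ATF4 belongs to the integrated stress response. Kinases that sense uncharged tRNA, misfolded protein in the endoplasmic reticulum (ER), haem shortage or viral RNA phosphorylate the initiation factor eIF2 on its alpha subunit, which slows general translation and favours translation of ATF4 mRNA. ATF4 protein then pairs with C/EBP and other leucine zipper factors and binds composite C/EBP-ATF elements at genes for amino acid synthesis, amino acid import, tRNA charging and feedback inhibition of growth signalling. Because ATF4 is set largely at translation, its own RNA level is only part of its regulation.

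The element these genes are known for has the core TGATGNAA, read TTNCATCA on the other strand, and no other motif was searched. Promoter windows from RefSeq (GRCh38.p14, 250 bases before to 50 bases from each gene's start) were matched to 33 of the 39 genes, and 9 of the 33 (27.3%) held the core on either strand. Among all 27305 genes with such a window, 4.46% held it. Counted by window, since a gene can have several starts, the core stood in 9 of 52 windows (17.3%) of the members and in 3.62% of 35116 windows in all. A match is a description and no evidence of binding. The 9 sites are shown because the core belongs to the element that genes of this response are known for. Each is given as 30 bases 5′ to 3′ in the direction of the gene, with the core in capitals.
ATF3: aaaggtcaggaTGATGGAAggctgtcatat
JDP2: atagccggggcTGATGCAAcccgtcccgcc
CHAC1: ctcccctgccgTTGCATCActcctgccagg
HERPUD1: gacgcggcgggTTGCATCAgcccgtgccca
ASNS: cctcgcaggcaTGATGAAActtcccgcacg
SLC7A1: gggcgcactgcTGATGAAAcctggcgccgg
SLC3A2: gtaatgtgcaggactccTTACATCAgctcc
SLC1A4: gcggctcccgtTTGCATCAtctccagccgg
SLC1A5: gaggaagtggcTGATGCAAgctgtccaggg
The core began 68 bases before the start in ASNS, where it is known as the nutrient-sensing response element. It lay 191 bases before the start in ATF3, 16 in JDP2, 209 in CHAC1, 176 in HERPUD1, 7 in SLC1A4 and 97 in SLC1A5. In SLC7A1 and SLC3A2 it lay after the start, at bases 8 and 38 counted from 1 at the start. Each start here is that of the window holding the core, and some of these genes have further windows without it. Some of these starts lie inside the gene's listed span, so a core before a start can still lie within the gene. On GRCh38.p14 these stretches are chr1:212565205-212565234 (ATF3), chr14:75427995-75428024 (JDP2), chr15:40953251-40953280 (CHAC1), chr16:56931955-56931984 (HERPUD1), chr11:62881719-62881748 (SLC3A2) and chr2:64989381-64989410 (SLC1A4), all on the plus strand. On the minus strand they are chr7:97872458-97872487 (ASNS), chr13:29595663-29595692 (SLC7A1) and chr19:46784893-46784922 (SLC1A5).

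HERPUD1, a component of ER-associated protein degradation, offers a longer view of one core, because a stretch of 156 bases before its first annotated exon is free of exons (chr16:56931892-56932047, plus strand).
HERPUD1: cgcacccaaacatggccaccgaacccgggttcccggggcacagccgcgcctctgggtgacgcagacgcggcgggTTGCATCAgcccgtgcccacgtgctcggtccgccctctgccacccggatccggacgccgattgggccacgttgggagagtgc
The core TTGCATCA, in capitals, stands near the middle of the stretch.

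Levels are given as CPM, obtained from the deposited RPKM values, and library totals ran from 18.2 to 51.5 M reads. PHF8 RNA averaged 2020 ± 89.6 CPM in PHF8 and 5381 ± 320 in F279S, against 50.6 ± 3.99 in wt (SD, n = 4 each). In the ER lines it averaged 1109 ± 14.8 in ERDD, 1906 ± 8.51 in ERPHF8 and 2150 ± 219 in ERAA (SD, n = 2 each). Reads of ESR1, the oestrogen receptor gene, averaged 125 ± 1.33 CPM in ERDD, 230 ± 0.614 in ERPHF8 and 261 ± 19.9 in ERAA (SD, n = 2 each). At most 1.35 CPM stood in any library of the first experiment. Form and amount of PHF8 RNA therefore vary together between the lines and cannot be told apart. All 10 monocytic markers, among them SPI1, CSF1R and ELANE, were at 1 CPM or more in all 18 libraries, and the 6 T cell, erythroid and epithelial markers reached at most 0.379 CPM. Of the others, MS4A1 (B cells) reached at most 0.0597 CPM, and PECAM1 ran from 242 to 626 and VWF from 0.11 to 1.57 (endothelium), and COL1A1 from 0.773 to 20.5 (fibroblasts). The summed monocytic markers came to 1858 to 2329 CPM in PHF8, 2328 to 2667 in F279S and 2633 to 3145 in wt, and to 2069 to 2103 in ERDD, 1870 to 1876 in ERPHF8 and 2504 to 2610 in ERAA. The part of this shift in the results below was not tested, and in bulk RNA fewer cells of a type and less RNA per cell cannot be told apart. In the first experiment, libraries 1 and 2 of every line stand apart from libraries 3 and 4: the mean chi-square per gene between libraries of a line was 26.6 to 75.8 across the pairs and 1.95 to 11.8 within them, where counting alone gives 1. The labels name no batch, so these are called library pairs, and changes within each pair are given beside most results of that experiment.

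Across the 18 libraries most members were higher in ERAA and ERPHF8 than in the first experiment, while the shares of members for ERDD, given below, lay nearer to those of all genes. Both ERAA libraries exceeded all 12 libraries of the first experiment for 31 of 38 members (81.6%), against 18.3% of all genes tested in the ER lines. For ERPHF8 this held for 28 of 38 members (73.7%), against 19.6% of all genes, and for ERDD for 11 of 38 (28.9%), against 18% of all genes. In ERDD both libraries lay within the range of the 12 for 20 members (52.6%, against 55.4% of all genes) and below all 12 for 5, namely TRIB3, GPT2, PYCR1, SLC6A9 and SLC43A1 (13.2%, against 18.2%). Experiment, line and treatment cannot be told apart here, and these counts carry no test. Among the ER lines themselves, 26 of 38 members (68.4%) had both ERDD libraries lowest, both ERPHF8 libraries between and both ERAA libraries highest, an order that 16.3% of all genes showed.

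**Figure D1:**
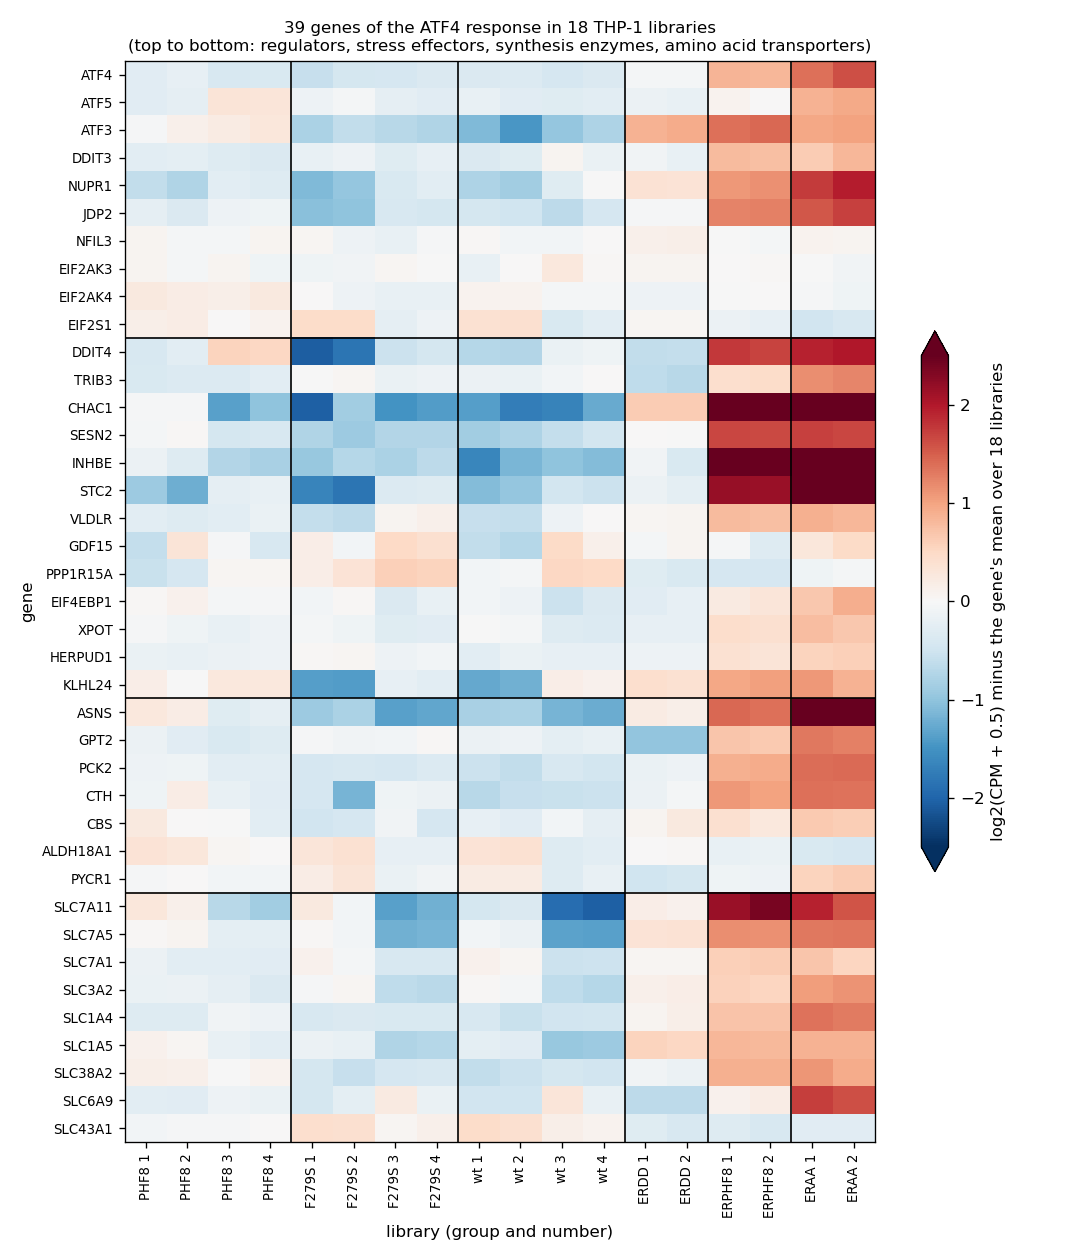
Level of the 39 genes (rows, by role) in the 18 libraries (columns), as log2(CPM + 0.5) minus the gene's mean over the 18 libraries, with colours clipped at the ends of the scale. The ERPHF8 and ERAA columns are red for most rows, INHBE, CHAC1 and STC2 most of all, and in F279S and wt rows such as SLC7A11, SLC7A5 and KLHL24 differ in colour between libraries 3 and 4 and libraries 1 and 2.

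Most members were lower in ERDD than in ERAA and than in ERPHF8. A fall or rise among the ER lines is relative to the line named, since that experiment held no parental line. Against ERAA, 31 of 38 members fell and 2 rose (limma, Benjamini-Hochberg adjusted p below 0.05 over all genes tested), where 33.3% of all 13831 genes fell and 34.8% rose. The median log2 change of the members was -1.04, against 0.00 for all genes. A fall of at least 1 on the log2 scale was called for 20 of the 38, and for 3.82% of all genes. All 12 stress effectors tested fell, as did 6 of 7 synthesis enzymes, 8 of 9 transporters and 5 of 10 regulators. Against ERPHF8, 31 of 38 members fell in ERDD and 3 rose, where 28% of all genes fell and 24.8% rose, with a members' median of -0.67 against -0.02 for all genes. In ERPHF8 against ERAA, 22 of 38 members fell and 4 rose, where 24.1% of all genes fell and 29.7% rose, with a members' median of -0.23 against 0.04. By role, 4 of 10 regulators, 8 of 12 effectors, 6 of 7 enzymes and 4 of 9 transporters fell. The 3 comparisons share libraries by pairs and are given side by side, not as separate support.

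**Figure D2:**
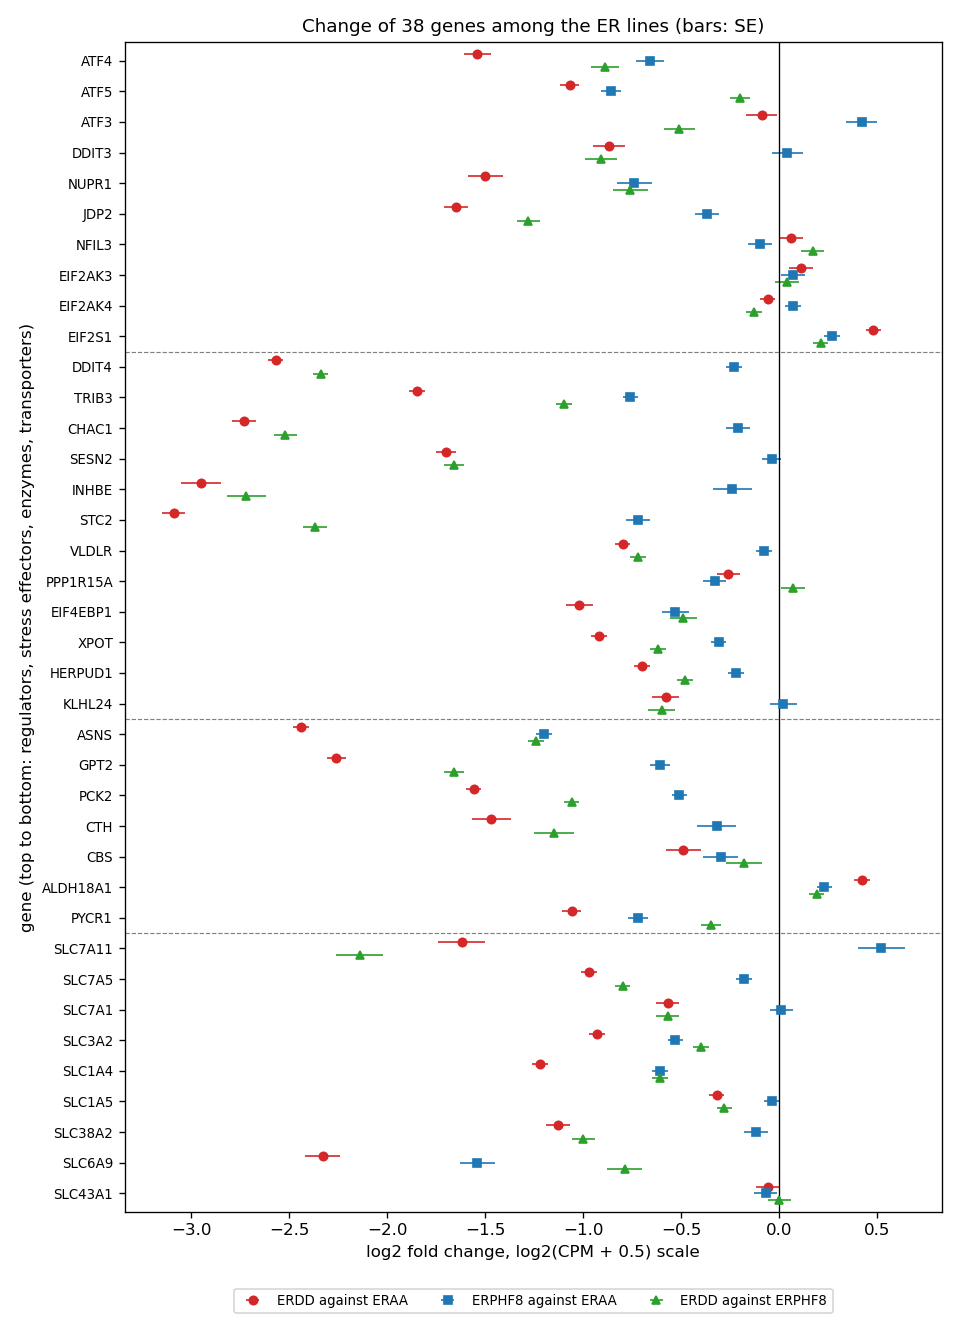
Fitted log2 fold change (x axis, log2(CPM + 0.5) scale, bars SE) of 38 genes (y axis, by role) in ERDD against ERAA, ERPHF8 against ERAA and ERDD against ERPHF8. Most points of ERDD against ERAA lie left of 0, down to -3.09 for STC2, and EIF2S1 and ALDH18A1 lie right of 0 in all 3 comparisons.

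Among the regulators, ATF4 itself was lower in ERDD than in ERPHF8 and ERAA. ATF4 (chromosome 22, 39519695 to 39522685, hg38) had 258 and 261 CPM in ERDD, 483 and 478 in ERPHF8 and 698 and 824 in ERAA. The 3 lines did not overlap and stood in that order. The change was -1.54 ± 0.07 (log2, SE; adjusted p = 1.1e-06) in ERDD against ERAA, -0.66 ± 0.07 (adjusted p = 0.0002) in ERPHF8 against ERAA and -0.89 ± 0.07 (adjusted p = 6.7e-05) in ERDD against ERPHF8. JDP2, a leucine zipper repressor whose promoter holds the core, had 16.2 and 16.4 CPM in ERDD, 40.1 and 40.7 in ERPHF8 and 49.5 and 55.3 in ERAA. JDP2 fell in ERDD, with a log2 change of -1.65 ± 0.06 against ERAA (adjusted p = 4.3e-07) and -1.28 ± 0.06 against ERPHF8 (adjusted p = 5.7e-06). NUPR1, a small stress-induced chromatin protein, had 6.19 and 6.13 CPM in ERDD, 10.6 and 11.1 in ERPHF8 and 17 and 19.9 in ERAA. Again no 2 lines overlapped, and NUPR1 changed by -1.50 ± 0.09 in ERDD (adjusted p = 3.7e-06) and -0.74 ± 0.09 in ERPHF8 (adjusted p = 0.00034), each against ERAA.

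ATF5, a related factor that is also translated under stress, had 57.1 and 55.5 CPM in ERDD, 66.4 and 63.5 in ERPHF8 and 115 and 122 in ERAA. Its values in ERDD and ERPHF8 lay much closer to each other than to ERAA: the log2 change was -1.07 in ERDD and -0.86 ± 0.05 in ERPHF8, each against ERAA (adjusted p = 1.1e-06 and 1.4e-05). Between ERDD and ERPHF8 it was -0.20 ± 0.05 (adjusted p = 0.009), a call lost without ERDD library 2 (-0.19, adjusted p = 0.084) or ERPHF8 library 1 (-0.17, adjusted p = 0.081). ATF5 lies wholly inside another listed gene and overlaps 2 more, and since overlapping genes share reads, its value is uncertain. DDIT3 (CHOP, a pro-apoptotic factor) had 13.5 and 12.7 CPM in ERDD, 25.5 and 24.7 in ERPHF8 and 22.8 and 26.1 in ERAA. ERPHF8 and ERAA overlapped (log2 change 0.04, adjusted p = 0.67), and ERDD was lower than ERAA by a log2 change of -0.87 (adjusted p = 3e-05). DDIT3 shares 982 bases with MARS, so its reads too are uncertain.

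ATF3, a stress-induced repressor, followed another order. It had 6.12 and 6.42 CPM in ERDD, 8.96 and 9.27 in ERPHF8 and 6.56 and 6.85 in ERAA, highest in ERPHF8. ATF3 rose in ERPHF8 against ERAA by 0.42 ± 0.08 (log2, SE; adjusted p = 0.003), and its change of -0.09 in ERDD against ERAA was not called (adjusted p = 0.34).

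The eIF2 kinases of the list differed little between the ER lines. EIF2AK3 (PERK, the kinase of the ER) had 19.4 and 19.3 CPM in ERDD, 18.6 and 18.8 in ERPHF8 and 18.4 and 17.3 in ERAA, and was called in none of the 3 comparisons (adjusted p from 0.13 to 0.56). EIF2AK4 (GCN2, which senses uncharged tRNA) had 70.5 and 70.4 CPM in ERDD, 77 and 77.7 in ERPHF8 and 75.4 and 72 in ERAA. Its call in ERDD against ERPHF8 (-0.13 ± 0.04, adjusted p = 0.031) was lost when any 1 library of the pair was left out (adjusted p from 0.12 to 0.16) or with median-ratio scaling (0.07), and it had no call in the other comparisons. EIF2S1, the alpha subunit of eIF2 that these kinases modify, rose: it had 126 and 126 CPM in ERDD, 111 and 107 in ERPHF8 and 87.9 and 92.8 in ERAA. That is the reverse of the order of ATF4, with a log2 change of 0.48 ± 0.04 in ERDD (adjusted p = 3.9e-05) and 0.27 ± 0.04 in ERPHF8 (adjusted p = 0.0015), each against ERAA. The difference of ERDD from ERPHF8 was 0.21 ± 0.04 (adjusted p = 0.0059), and its call was lost without ERDD library 1 (adjusted p = 0.052), ERDD library 2 (0.057) or ERPHF8 library 2 (0.067). EIF2S1 shares 269 bases with ATP6V1D, so its reads are uncertain. NFIL3, a leucine zipper repressor, had 14.9 to 17.1 CPM in the 6 libraries. It was called higher in ERDD than in ERPHF8 (0.17 ± 0.06, adjusted p = 0.046), but not with a replicate block (adjusted p = 0.072), with no filter on low genes (0.056) or without any 1 of the 4 libraries (adjusted p from 0.11 to 0.22).

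The widest falls in ERDD were among the stress effectors. STC2, a secreted glycoprotein, had 5.34 and 4.94 CPM in ERDD, 28.7 and 28.6 in ERPHF8 and 48.4 and 46.3 in ERAA. All 3 lines were apart, and STC2 fell by a log2 change of -3.09 ± 0.06 in ERDD against ERAA (adjusted p = 1.9e-08), the ERAA mean being 9.21 times the ERDD mean. Against ERPHF8 the change in ERDD was -2.37 ± 0.06 (adjusted p = 5.7e-07), and in ERPHF8 against ERAA it was -0.72 ± 0.06 (adjusted p = 8.3e-05). INHBE, the precursor of activin E, had 2.14 and 1.65 CPM in ERDD, 15.4 and 14.9 in ERPHF8 and 17.8 and 18.1 in ERAA. Here ERPHF8 lay close under ERAA (-0.24 ± 0.10, adjusted p = 0.09, not called), and ERDD fell against both, by a log2 change of -2.95 ± 0.10 against ERAA (adjusted p = 3.2e-07) and -2.72 ± 0.10 against ERPHF8 (adjusted p = 1.6e-06). CHAC1, which breaks down glutathione and has the core 209 bases before its start, had 7.07 and 7.1 CPM in ERDD, 43.5 and 42.5 in ERPHF8 and 47.6 and 52 in ERAA. It had the same shape: -2.73 ± 0.06 in ERDD against ERAA (adjusted p = 3e-08), -2.52 ± 0.06 in ERDD against ERPHF8 (adjusted p = 3.9e-07) and -0.21 ± 0.06 in ERPHF8 against ERAA (adjusted p = 0.022), the call in ERPHF8 against ERAA being lost without ERPHF8 library 1 (adjusted p = 0.079), ERPHF8 library 2 (0.13) or ERAA library 2 (0.073).

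DDIT4 and SESN2, both restraints on the growth kinase complex mTORC1, were likewise nearly as high in ERPHF8 as in ERAA. DDIT4 had 63.8 and 64.6 CPM in ERDD, 336 and 320 in ERPHF8 and 375 and 395 in ERAA. It changed by -2.57 ± 0.04 in ERDD against ERAA (adjusted p = 9.6e-09), -2.34 ± 0.04 in ERDD against ERPHF8 (adjusted p = 1.3e-07) and -0.23 ± 0.04 in ERPHF8 against ERAA (adjusted p = 0.0031). SESN2, a leucine sensor, had 17 and 16.8 CPM in ERDD, 54.8 and 53.9 in ERPHF8 and 56.6 and 55.2 in ERAA. It fell by a log2 change of -1.70 ± 0.05 in ERDD against ERAA (adjusted p = 9.8e-08) and -1.66 ± 0.05 against ERPHF8 (adjusted p = 6.7e-07), while ERPHF8 differed from ERAA by -0.04 ± 0.05 (adjusted p = 0.49). TRIB3, a pseudokinase that binds ATF4 and limits its activity, had 45.8 and 44.4 CPM in ERDD, 95.8 and 98.3 in ERPHF8 and 161 and 168 in ERAA. TRIB3 differed from DDIT4 and SESN2 in that ERPHF8 lay well below ERAA (-0.76 ± 0.04, adjusted p = 1.5e-05), with ERDD lower still (-1.85 ± 0.04 against ERAA, adjusted p = 3.6e-08, and -1.10 ± 0.04 against ERPHF8, adjusted p = 1.9e-06).

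**Figure D3:**
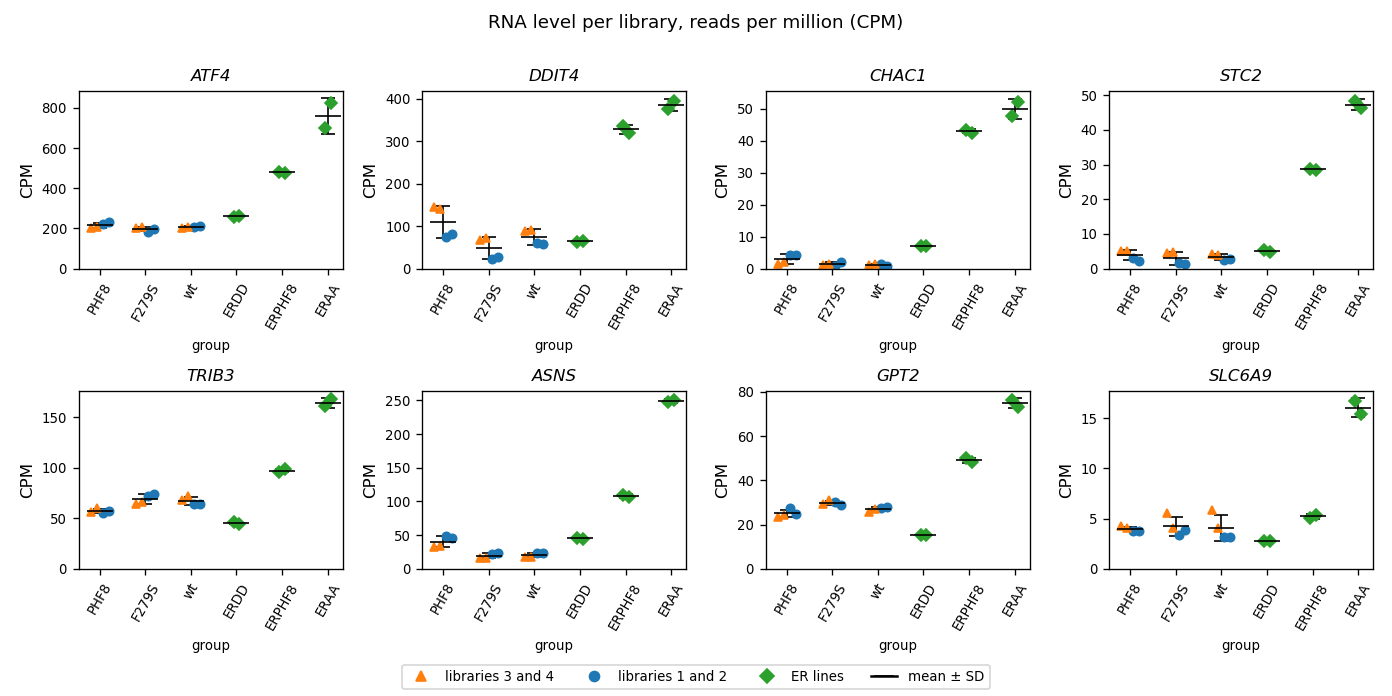
CPM of 8 genes in each library (points), with the mean and SD of each of the 6 groups (bars); the 8 were picked for display after their values were seen. ERDD lies nearer to the libraries of the first experiment than ERAA does for all 8, while ERPHF8 lies close under ERAA for DDIT4 and CHAC1 and well below it for ATF4, STC2, TRIB3, ASNS, GPT2 and SLC6A9.

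The remaining effectors changed less. VLDLR (a lipoprotein receptor), EIF4EBP1 (a translation repressor under mTORC1), XPOT (the tRNA exporter), HERPUD1 and KLHL24 (a ubiquitin ligase adaptor) fell in ERDD against ERAA with log2 changes from -0.58 (KLHL24) to -1.02 (EIF4EBP1). PPP1R15A (GADD34), the phosphatase subunit that reverses eIF2 phosphorylation, had 17.2 and 16.1 CPM in ERDD, 15.8 and 15.8 in ERPHF8 and 19.8 and 20.4 in ERAA. Its falls of -0.26 ± 0.06 in ERDD and -0.33 ± 0.06 in ERPHF8 were small (adjusted p = 0.0061 and 0.0029), and the first was lost without ERDD library 2 (-0.22, adjusted p = 0.064). GDF15 was too low to test, with 0.463 and 0.533 CPM in ERDD, 0.468 and 0.294 in ERPHF8 and 0.713 and 0.877 in ERAA.

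Of the enzymes, ASNS, which makes asparagine and carries the known element in its promoter, had the widest fall in ERDD against ERAA, and GPT2 in ERDD against ERPHF8. ASNS (chromosome 7, 97852118 to 97872542) had 46.2 and 44.6 CPM in ERDD, 110 and 106 in ERPHF8 and 247 and 251 in ERAA. The lines were evenly spaced on the log2 scale: -2.44 ± 0.04 in ERDD against ERAA (adjusted p = 9.7e-09), -1.20 ± 0.04 in ERPHF8 against ERAA (adjusted p = 3.1e-06) and -1.24 ± 0.04 in ERDD against ERPHF8 (adjusted p = 9.1e-07). GPT2, the mitochondrial alanine transaminase, had 15.2 CPM in both ERDD libraries, 49.9 and 48.1 in ERPHF8 and 76.5 and 73.3 in ERAA. GPT2 fell by a log2 change of -2.26 ± 0.05 in ERDD against ERAA (adjusted p = 2.7e-08), -1.66 ± 0.05 in ERDD against ERPHF8 (adjusted p = 6.9e-07) and -0.61 ± 0.05 in ERPHF8 against ERAA (adjusted p = 6e-05). For GPT2, as for ASNS, the 3 lines did not overlap. PCK2, the mitochondrial PEP carboxykinase, had 60.4 and 62.5 CPM in ERDD, 126 and 130 in ERPHF8 and 181 and 184 in ERAA (-1.56 ± 0.04 in ERDD against ERAA, adjusted p = 6.9e-08, -1.06 ± 0.04 in ERDD against ERPHF8, adjusted p = 1.8e-06). In ERPHF8 against ERAA it changed by -0.51 ± 0.04 (adjusted p = 5.9e-05). PCK2 lies wholly inside the span of NRL, so its reads are uncertain.

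The enzymes of cysteine supply fell as well. CTH had 1.61 and 1.77 CPM in ERDD, 4.45 and 4.24 in ERPHF8 and 5.58 and 5.51 in ERAA, a log2 change of -1.47 ± 0.10 in ERDD against ERAA (adjusted p = 7.1e-06). CBS changed by -0.49 ± 0.09 (adjusted p = 0.0019) in the same comparison, but has a near-identical copy in the tables, CBSL, so its reads are uncertain. In ERPHF8 against ERAA the calls of CTH (-0.32, adjusted p = 0.025) and CBS (-0.30, adjusted p = 0.025) were lost without ERPHF8 library 2 (adjusted p = 0.14 and 0.16). That of CBS was also lost with no filter (0.058), and that of CTH also without each of the other 3 libraries (adjusted p from 0.053 to 0.074). Proline synthesis split. PYCR1, its last enzyme, had 50.1 and 51.6 CPM in ERDD, 65.1 and 64.5 in ERPHF8 and 104 and 110 in ERAA (-1.06 ± 0.05 in ERDD against ERAA, adjusted p = 9.9e-07, and -0.72 ± 0.05 in ERPHF8 against ERAA, adjusted p = 2.7e-05). ALDH18A1, its first, had 97.4 and 98.4 CPM in ERDD, 85.2 and 85.9 in ERPHF8 and 73.5 and 72.4 in ERAA. PYCR1 shares 2768 bases with MYADML2, so its reads are uncertain. ALDH18A1 was the only enzyme of the 7 to rise, by 0.42 ± 0.04 in ERDD against ERAA (adjusted p = 4.1e-05), and by 0.19 in ERDD against ERPHF8, a call lost without ERDD library 2 (adjusted p = 0.056).

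Among transporters, SLC6A9, the glycine carrier, had the widest fall in ERDD against ERAA. It had 2.78 and 2.81 CPM in ERDD, 5.04 and 5.37 in ERPHF8 and 16.7 and 15.4 in ERAA. ERPHF8 was here nearer to ERDD than to ERAA, with changes of -2.33 ± 0.09 (adjusted p = 4e-07) in ERDD and -1.54 ± 0.09 (adjusted p = 1.4e-05) in ERPHF8, each against ERAA. Part of its span is shared with CCDC24, so its reads are uncertain. SLC1A4 (ASCT1, a neutral amino acid carrier) had 93.5 and 98.1 CPM in ERDD, 147 and 146 in ERPHF8 and 229 and 220 in ERAA. All 3 lines were apart, and the change was -1.22 ± 0.04 in ERDD (adjusted p = 3.2e-07) and -0.61 ± 0.04 in ERPHF8 (adjusted p = 3.5e-05), each against ERAA. SLC3A2, the heavy chain that carries SLC7A5 and SLC7A11 to the membrane, had 172 and 175 CPM in ERDD, 232 and 228 in ERPHF8 and 323 and 340 in ERAA (-0.93 ± 0.04 in ERDD and -0.53 ± 0.04 in ERPHF8 against ERAA, adjusted p = 9.7e-07 and 5.2e-05).

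SLC7A11, the cystine importer, was highest in ERPHF8. It had 25.5 and 24.3 CPM in ERDD, 103 and 120 in ERPHF8 and 87.9 and 68 in ERAA. SLC7A11 fell in ERDD against ERPHF8 by a log2 change of -2.14 ± 0.12 (adjusted p = 9.5e-06) and against ERAA by -1.62 ± 0.12 (adjusted p = 1e-05). Its rise of 0.52 ± 0.12 in ERPHF8 against ERAA (adjusted p = 0.0063) was lost without ERPHF8 library 2 (0.41, adjusted p = 0.052). SLC7A5 (LAT1, the leucine importer) had 281 and 285 CPM in ERDD, 493 and 490 in ERPHF8 and 549 and 561 in ERAA. SLC38A2 (SNAT2, a glutamine carrier) had 176 and 170 CPM in ERDD, 348 and 347 in ERPHF8 and 403 and 355 in ERAA. Both fell in ERDD against ERAA, with log2 changes of -0.97 and -1.13 (adjusted p = 4.9e-07 and 2.4e-06). In ERPHF8 against ERAA SLC7A5 alone was called (-0.18, adjusted p = 0.0053), a call lost without ERPHF8 library 2 (adjusted p = 0.059). SLC7A1, the importer of cationic amino acids, and SLC1A5 (ASCT2) fell in ERDD against ERAA by less (-0.57 and -0.32, adjusted p = 6.1e-05 and 0.00013; reads of SLC1A5 are uncertain). SLC43A1, a leucine carrier, was called in no comparison of the ER lines, with 37.5 to 40.8 CPM.

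In the first experiment the differences were smaller and fewer passed the test. In PHF8 against wt, 7 of 38 members rose and 1 fell, where 12.7% of all 13683 genes rose and 8.28% fell. The members' median log2 change was 0.16 against 0.01 for all genes. The 7 that rose were 1 of 10 regulators, 2 of 12 stress effectors, 2 of 7 enzymes and 2 of 9 transporters. The 1 that fell was an effector. With the library number as a block, 15 rose and 3 fell, where 22.4% of all genes rose and 19% fell. In PHF8 against F279S, 8 of 38 rose and 3 fell, where 12.2% of all genes rose and 7.92% fell. With the block 15 rose and 4 fell, where 23.2% of all genes rose and 17.8% fell. In F279S against wt, 0 of 38 members were called by limma, where 0.0146% of all genes rose and 0% fell, and 0 were called with voom weights. An unadjusted p below 0.05 stood for 4 members (ATF3, INHBE, HERPUD1 and EIF2AK4). That count is given without the share of all genes and is not read as a result. With the block, SLC7A11 rose (0.59, adjusted p = 0.039) and DDIT4 fell in F279S, where 1.33% of all genes rose and 0.848% fell. Neither was called with library pairs averaged (adjusted p = 0.97 each), a setting chosen after seeing the data. PHF8 libraries enter 2 of these comparisons and wt libraries 2, so they are given side by side.

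**Figure D4:**
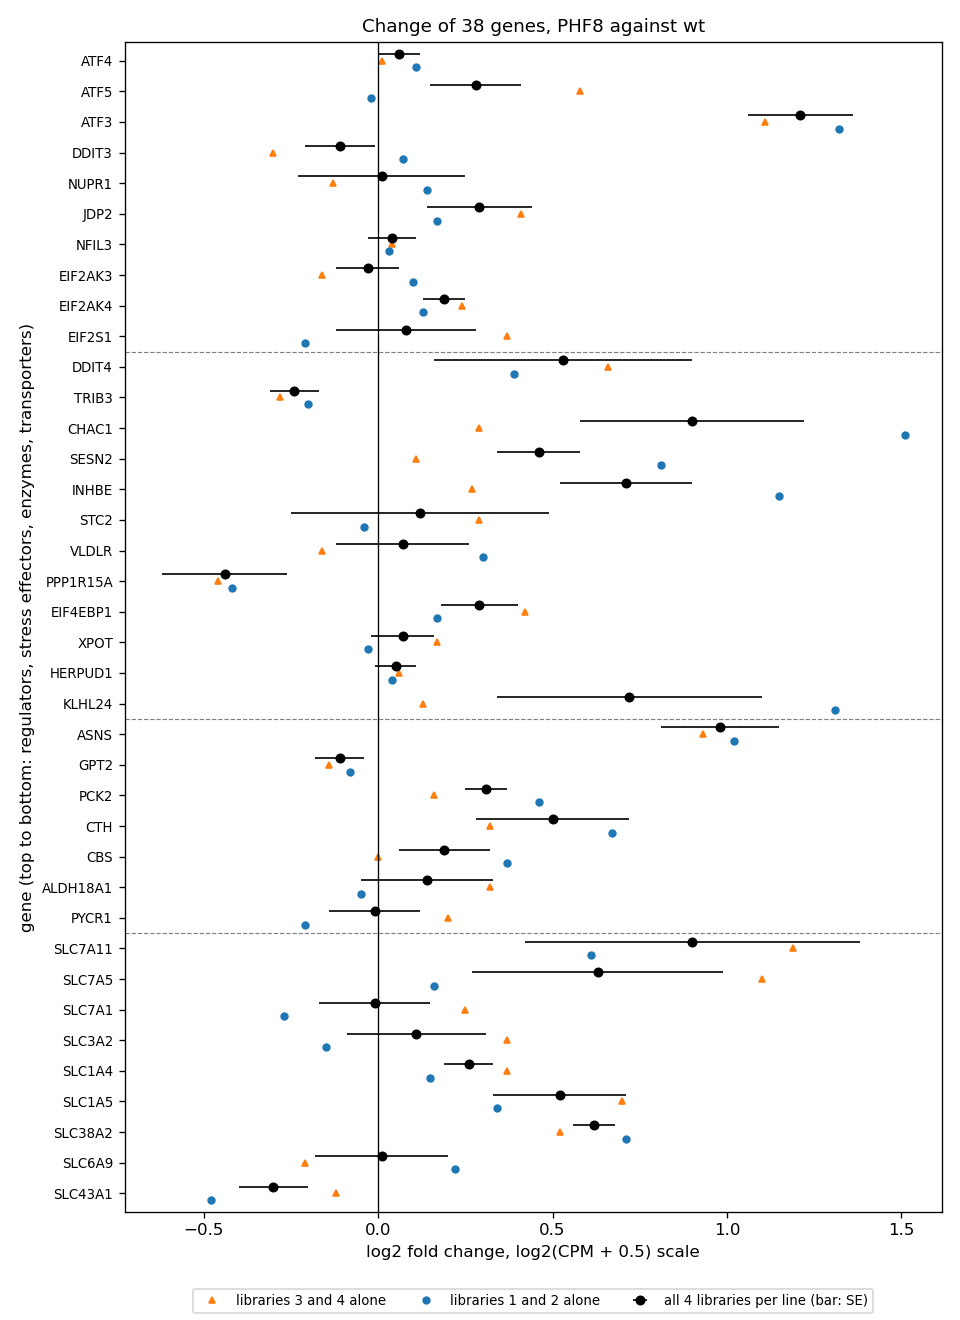
Fitted log2 fold change of 38 genes in PHF8 against wt (x axis, log2(CPM + 0.5) scale; genes by role on the y axis), from all 4 libraries per line (bars SE), from libraries 3 and 4 alone and from libraries 1 and 2 alone. ATF3, ASNS and SLC38A2 lie right of 0 by similar amounts in both pairs, whereas CHAC1, KLHL24, SESN2 and INHBE lie further right in libraries 1 and 2, and SLC7A5 and SLC7A11 in libraries 3 and 4.

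ATF4 RNA was called in none of the 3 comparisons over all libraries. It had 221, 232, 202 and 207 CPM in the 4 PHF8 libraries, 181, 198, 200 and 209 in F279S and 208, 211, 200 and 208 in wt. All 3 groups overlapped, with a log2 change of 0.06 ± 0.06 in PHF8 against wt (adjusted p = 0.58; 0.01 in libraries 3 and 4 and 0.11 in libraries 1 and 2) and 0.13 ± 0.06 against F279S (adjusted p = 0.17). Against F279S the pairs differed: the change was 0.00 in libraries 3 and 4 and 0.26 in libraries 1 and 2 (adjusted p = 0.00034 in a fit of those libraries alone). ATF3, low in all libraries, had 3.04, 3.45, 3.7 and 3.93 CPM in PHF8, 1.6, 1.86, 1.75 and 1.65 in F279S and 1.2, 0.824, 1.37 and 1.64 in wt. PHF8 was above both other groups without overlap, with a log2 change of 1.21 ± 0.15 against wt (adjusted p = 0.00017) and 0.86 ± 0.15 against F279S (adjusted p = 0.0019). Within library pairs the change against wt was 1.11 in libraries 3 and 4 and 1.32 in libraries 1 and 2.

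ASNS and SLC38A2 also rose against both other lines. ASNS had 48.7, 46, 32.6 and 34.2 CPM in PHF8, 21.3, 23.1, 15.5 and 16.1 in F279S and 22.8, 23.2, 17.7 and 16.8 in wt. Libraries 3 and 4 were below libraries 1 and 2 in every line, and PHF8 was above both other lines throughout. The log2 change was 0.98 ± 0.17 against wt (adjusted p = 0.0019) and 1.06 ± 0.17 against F279S (adjusted p = 0.0011), and against wt it was 0.93 in libraries 3 and 4 and 1.02 in libraries 1 and 2. SLC38A2 had 207, 204, 187 and 200 CPM in PHF8, 138, 125, 139 and 141 in F279S and 122, 128, 137 and 134 in wt. It rose by 0.62 ± 0.06 on the log2 scale against wt (adjusted p = 3.4e-05) and 0.55 ± 0.06 against F279S (adjusted p = 8e-05), and against wt by 0.52 in libraries 3 and 4 and 0.71 in libraries 1 and 2. SLC1A4 had 70.9, 71.3, 83.8 and 82.1 CPM in PHF8 and 67.5, 60.3, 63.4 and 64.4 in wt, and rose (0.26 ± 0.07, adjusted p = 0.015; 0.37 in libraries 3 and 4 and 0.15 in libraries 1 and 2). PCK2 had 62.7, 63.6, 56.5 and 56.5 CPM in PHF8 and 47.1, 44.5, 51.2 and 49.7 in wt, without overlap (0.31 ± 0.06, adjusted p = 0.0052). In libraries 3 and 4 alone its change was 0.16 (adjusted p = 0.051). Against F279S the PCK2 call (0.20, adjusted p = 0.045) was lost without any 1 library but PHF8 library 4 (adjusted p from 0.051 to 0.13), with median-ratio scaling (0.076) and with wt left out of the fit (0.054). When each library pair was averaged into 1 value, a setting chosen after seeing the data, ATF3 (adjusted p = 0.015), ASNS (0.0066) and SLC38A2 (0.01) were still called against wt, and PCK2, SLC1A4, SESN2, INHBE and TRIB3 were not (adjusted p from 0.095 to 0.16).

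Among the stress effectors, SESN2 had 16.3, 17.2, 12.4 and 12.7 CPM in PHF8, 9.78, 8.83, 9.93 and 9.98 in F279S and 9.06, 9.64, 11.1 and 12.1 in wt. PHF8 did not overlap wt, but the gap was wide only in libraries 1 and 2: 0.46 ± 0.12 over all libraries (adjusted p = 0.021), 0.11 in libraries 3 and 4 (adjusted p = 0.3) and 0.81 in libraries 1 and 2. Its call against wt was lost without PHF8 library 1 or 2 (adjusted p = 0.066 for each), wt library 1 (0.061) or wt library 2 (0.055). INHBE had 2.03, 1.73, 1.17 and 1.09 CPM in PHF8, 0.952, 1.21, 1.11 and 1.28 in F279S and 0.401, 0.773, 0.899 and 0.818 in wt. INHBE rose against wt by 0.71 ± 0.19 (adjusted p = 0.022). That call was lost without PHF8 library 1 (adjusted p = 0.069), PHF8 library 2 (0.065) or wt library 1 (0.06), and with F279S left out of the fit (0.053). In libraries 3 and 4 alone the change was 0.27 (adjusted p = 0.18). Against F279S, SESN2 rose by 0.57 ± 0.12 (adjusted p = 0.0071), and INHBE overlapped (0.27, adjusted p = 0.39). Within pairs that rise of SESN2 was 0.32 in libraries 3 and 4 and 0.82 in libraries 1 and 2. With library pairs averaged, the calls against F279S of SESN2 (adjusted p = 0.1), JDP2 (0.12), TRIB3 (0.13), GPT2 (0.14) and PCK2 (0.23) were lost. TRIB3 fell in PHF8, with 55, 56.7, 56.4 and 59.7 CPM, against 71.7, 74.2, 63.9 and 66 in F279S and 64.5, 64, 68.3 and 72.5 in wt. Although PHF8 overlapped neither other group, the change against wt was small (-0.24 ± 0.07, adjusted p = 0.022; -0.28 in libraries 3 and 4 and -0.20 in libraries 1 and 2) and its call was lost without PHF8 library 1 (adjusted p = 0.065), 2 (0.053) or 3 (0.056) or wt library 4 (0.064). Against F279S TRIB3 changed by -0.27 ± 0.07 (adjusted p = 0.012), and by -0.16 in libraries 3 and 4 alone (adjusted p = 0.071).

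DDIT4 set PHF8 apart from F279S more than from wt. It had 73.9, 82, 144 and 140 CPM in PHF8, 23.3, 27.5, 67.8 and 72.2 in F279S and 59.8, 58.7, 88 and 91.7 in wt, higher in libraries 3 and 4 of each line. The rise against F279S was 1.31 ± 0.37 on the log2 scale (adjusted p = 0.028) and was lost without PHF8 library 3 (adjusted p = 0.079), PHF8 library 4 (0.079), F279S library 1 (0.074) or F279S library 2 (0.08). Within pairs it was 1.02 in libraries 3 and 4 and 1.60 in libraries 1 and 2. Against wt it was 0.53 ± 0.37 (adjusted p = 0.38), called with the block (adjusted p = 0.014). F279S against wt gave -0.79 ± 0.37 (adjusted p = 0.8), called with the block (adjusted p = 0.027).

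PPP1R15A had 14.3, 15.8, 22 and 21.9 CPM in PHF8, 23.8, 27, 32.4 and 31.3 in F279S and 20.2, 20.5, 30.7 and 30.3 in wt. It fell in PHF8 against F279S by a log2 change of -0.63 ± 0.18 (adjusted p = 0.032), a call lost without PHF8 library 1 (adjusted p = 0.098), PHF8 library 2 (0.089), F279S library 2 (0.057), 3 (0.077) or 4 (0.08). Against wt its change of -0.44 was not called without the block (adjusted p = 0.12) but was called with it (adjusted p = 0.00041). It was also called in fits of libraries 1 and 2 alone (adjusted p = 0.00029) and of libraries 3 and 4 alone (adjusted p = 0.0013). The last calls against F279S were those of JDP2, GPT2 and EIF2AK4. JDP2 rose by 0.52 ± 0.15 (adjusted p = 0.029; 0.30 in libraries 3 and 4 and 0.73 in libraries 1 and 2), and the call was lost without PHF8 library 1, 3 or 4 or F279S library 1 or 2 (adjusted p from 0.063 to 0.084) or with wt left out of the fit (0.055). GPT2 fell by a log2 change of -0.25 ± 0.07 (adjusted p = 0.019), lost without PHF8 library 3 or 4 or F279S library 4 (adjusted p from 0.053 to 0.061) or in libraries 1 and 2 alone (0.068). EIF2AK4 (GCN2) had 91.8, 87.5, 85.2 and 91.3 CPM in PHF8, 77.9, 70.5, 67.8 and 67.5 in F279S and 82.1, 82, 74.7 and 74.1 in wt. It rose against F279S by 0.33 ± 0.06 (adjusted p = 0.0037, with 0.38 in libraries 3 and 4 and 0.27 in libraries 1 and 2). Against wt its change of 0.19 ± 0.06 was called with the block (adjusted p = 0.0082) and not without it (adjusted p = 0.06). Fitted alone, libraries 3 and 4 gave a call (adjusted p = 0.011) and libraries 1 and 2 did not (adjusted p = 0.079).

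EIF2AK3 was called in none of these comparisons, with 17.2 to 19.5 CPM in PHF8, 17.1 to 19.1 in F279S and 16.3 to 22.2 in wt. EIF2S1 had 136, 140, 123 and 131 CPM in PHF8, 169, 169, 105 and 112 in F279S and 160, 161, 93.9 and 102 in wt. The F279S and wt libraries fell into 2 levels by library pair with PHF8 between them, and the overall change of 0.08 against wt was not called. Besides DDIT4, PPP1R15A and EIF2AK4, the calls gained against wt with the block were CHAC1 (0.90, adjusted p = 0.032), EIF4EBP1 (0.29, adjusted p = 0.0025), SLC7A11 (0.90, adjusted p = 0.00023), SLC7A5 (0.63, adjusted p = 0.012), SLC1A5 (0.52, adjusted p = 0.00017), KLHL24 (0.72, adjusted p = 0.017) and, lower in PHF8, SLC43A1 (-0.30, adjusted p = 0.011). With library pairs averaged, SLC7A11 (adjusted p = 0.023), SLC1A5 (0.027) and PPP1R15A (0.048) were called, and the other 7 calls gained with the block were not (adjusted p from 0.079 to 0.16).

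Many members, like many other genes, differed between the library pairs. In libraries 3 and 4 against libraries 1 and 2, over all 3 lines, 8 of 38 members were higher and 13 lower, where 33.9% of all genes were higher and 29% lower. Of the 9 transporters 6 were lower in libraries 3 and 4 and 1 was higher, and of the 12 stress effectors 2 were lower and 5 higher. SLC7A5 had 186 and 185 CPM in PHF8 libraries 3 and 4, 96 and 98.1 in F279S and 87.1 and 86.1 in wt, against 224 and 231 in PHF8 libraries 1 and 2, 226 and 210 in F279S and 210 and 198 in wt. PHF8 thus lay near the other lines in libraries 1 and 2 and well above them in libraries 3 and 4. The change of PHF8 against wt in libraries 3 and 4 minus that in libraries 1 and 2 was 0.94 ± 0.07 for SLC7A5 (adjusted p = 1.2e-05) and 0.52 ± 0.08 for its partner SLC3A2 (adjusted p = 0.00077). In all, this difference was called for 18 of 38 members, 11 with a higher and 7 with a lower value in libraries 3 and 4, where 16.1% of all genes were called higher and 14.4% lower.

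SLC7A11 had 27.6, 24.7, 13.8 and 12.2 CPM in the 4 PHF8 libraries, 26.9, 21.7, 8.5 and 9.53 in F279S and 16.6, 17.5, 5.66 and 5.1 in wt. All lines were lower in libraries 3 and 4, and PHF8 was above wt within each pair, by 1.19 on the log2 scale in libraries 3 and 4 and 0.61 in libraries 1 and 2. SLC1A5 had 276, 267, 226 and 215 CPM in PHF8, 233, 226, 153 and 157 in F279S and 217, 212, 134 and 137 in wt, and was likewise highest in PHF8 within both pairs. KLHL24 had the opposite pattern in F279S and wt, with 20.8, 18.5, 22.5 and 22.4 CPM in PHF8, 6.88, 6.74, 16.1 and 15.5 in F279S and 7.41, 7.83, 20.9 and 20 in wt. PHF8 stood far above both lines in libraries 1 and 2 and close to wt in libraries 3 and 4. CHAC1, with 4.31, 4.28, 1.41 and 1.96 CPM in PHF8, 0.692, 2.19, 1.25 and 1.36 in F279S and 1.4, 0.979, 1.04 and 1.54 in wt, was also highest in PHF8 libraries 1 and 2, where PHF8 exceeded wt by 1.51 on the log2 scale. ATF5 had the reverse arrangement, with 51.6, 53.8, 78.6 and 77.3 CPM in PHF8, 57.3, 60.5, 53.8 and 51.6 in F279S and 55.1, 51.6, 51 and 52.6 in wt, so that PHF8 libraries 3 and 4 alone stood apart.

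Members with no call in the first experiment, with or without the block, in PHF8 against wt included NUPR1, STC2, DDIT3, GPT2 and PYCR1. STC2 had 2.94, 2.3, 5.07 and 5.19 CPM in PHF8, 1.56, 1.32, 4.64 and 4.72 in F279S and 2.55, 2.83, 4.24 and 3.99 in wt, higher in libraries 3 and 4 of every line and overlapping between the lines. NUPR1 ran from 2.59 to 3.88 CPM in PHF8, from 1.95 to 3.84 in F279S and from 2.37 to 4.67 in wt. GPT2 ran from 23.4 to 27.5 CPM in PHF8, from 28.8 to 31.2 in F279S and from 25.6 to 27.7 in wt. The genes that differed most widely between the ER lines (STC2, INHBE, CHAC1 and DDIT4) were thus at or below 5.19, 2.03, 4.31 and 144 CPM in every library of the first experiment.

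**Figure D5:**
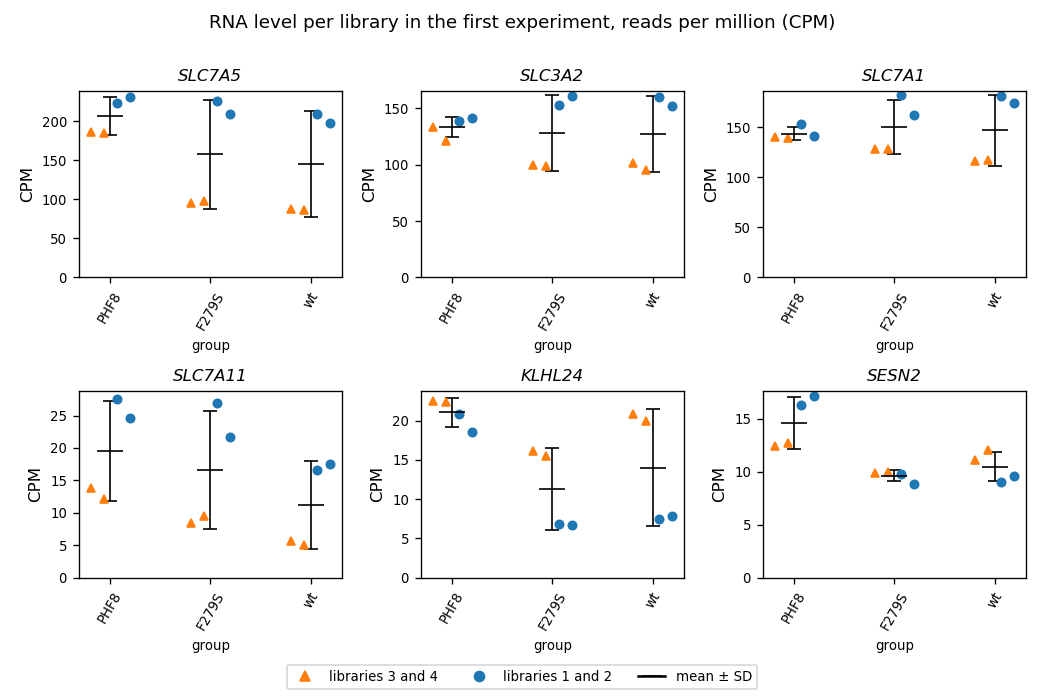
CPM of 6 genes in the 12 libraries of the first experiment (points, by library pair), with the mean and SD of each line; the 6 were picked for display after their values were seen. In F279S and wt, SLC7A5, SLC3A2, SLC7A1 and SLC7A11 are lower in libraries 3 and 4, while in PHF8 SLC7A5, SLC3A2 and SLC7A1 differ less between the pairs, and KLHL24 is near 20 CPM in all PHF8 libraries.

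Other genes of the pathway, from lists chosen with results of these data known, were examined beside the members. Their counts are read against the shares of all genes, which were 34.8% higher and 33.3% lower in ERDD against ERAA and 12.7% higher and 8.28% lower in PHF8 against wt. Of the 9 serine and one-carbon enzymes, many of them known ATF4 targets, 7 fell and 2 rose in ERDD against ERAA (median -1.48). PSAT1, of serine synthesis, averaged 141 CPM in ERDD and 599 in ERAA (-2.08 ± 0.04, adjusted p = 1e-08), and PHGDH, the first enzyme of the path, 315 and 1150 CPM (-1.87 ± 0.04, adjusted p = 3.8e-08). In PHF8 against wt, 3 of the 9 rose and 0 fell, with PHGDH at 210 CPM in PHF8 and 98.8 in wt (1.07 ± 0.08, adjusted p = 5.8e-06; 0.91 in libraries 3 and 4 and 1.24 in libraries 1 and 2), and 6 were not called. Of 20 cytosolic aminoacyl-tRNA synthetases, 14 fell and 5 rose in ERDD against ERAA (median -0.58), among them CARS (-1.08) and WARS (-1.07, overlapping another gene), which charge cysteine and tryptophan tRNAs, and in PHF8 against wt CARS (0.35, adjusted p = 0.012) and AARS (0.34, adjusted p = 0.025) rose and 0 fell. Both changes were smaller in libraries 3 and 4 (0.14 and 0.16) than in libraries 1 and 2 (0.57 and 0.51).

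Of 10 leucine zipper factors that can pair with ATF4 or share its targets, 8 fell and 0 rose in ERDD against ERAA. CEBPB averaged 30.4 CPM in ERDD and 83.7 in ERAA (-1.44 ± 0.06, adjusted p = 6.4e-07), and CEBPG 71.4 and 131 CPM (-0.87 ± 0.05, adjusted p = 2.4e-06). In the eIF2 pathway list of 14 genes found, 8 rose and 3 fell in ERDD against ERAA. EIF2AK2 (PKR), the kinase activated by double-stranded RNA and itself a known interferon-induced gene, averaged 287 CPM in ERDD, 167 in ERPHF8 and 75.8 in ERAA, opposite in order to ATF4 (it overlaps another gene; 1.92 ± 0.04 in ERDD against ERAA, adjusted p = 3.5e-08). The gamma and beta subunits of eIF2, EIF2S3 and EIF2S2, fell by log2 changes of -0.66 and -0.52 in the same comparison (adjusted p = 3.3e-06 and 3.6e-05).

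In the arm of the unfolded protein response that serves ER folding, 9 of 16 genes rose and 3 fell in ERDD against ERAA (median 0.54), where 34.8% of all genes rose and 33.3% fell. HSPA5 (BiP, the main ER chaperone) averaged 981 CPM in ERDD and 518 in ERAA (0.92 ± 0.04, adjusted p = 8.5e-07), CALR 2274 and 813 CPM (1.49 ± 0.05, adjusted p = 3.8e-07), while XBP1, a transcription factor of that arm, averaged 128 and 290 CPM (-1.17 ± 0.05, adjusted p = 5.6e-07). In PHF8 against wt, 0 of these 16 were called.

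Of 12 other amino acid enzymes tested, 4 rose and 4 fell in ERDD against ERAA, close to the shares of all genes (34.8% and 33.3%), and the widest fall was that of ASS1 (argininosuccinate synthase, of arginine synthesis), which averaged 52.5 CPM in ERDD, 126 in ERPHF8 and 473 in ERAA (-3.16 ± 0.06 in ERDD against ERAA, adjusted p = 1.7e-08). Of 14 other amino acid transporters tested, 7 rose and 5 fell, with SLC38A5 at 78.1 CPM in ERDD and 33.9 in ERAA (1.20 ± 0.06, adjusted p = 1.2e-06). In PHF8 against wt, 3 of 13 such transporters rose and 2 fell. SLC16A10, an aromatic amino acid carrier, averaged 15.6 CPM in PHF8 and 5.8 in wt (1.35 ± 0.08, adjusted p = 1.2e-06; 1.43 in libraries 3 and 4 and 1.27 in libraries 1 and 2), and SLC38A1, a glutamine carrier related to SLC38A2, 234 and 128 CPM (0.89 ± 0.16, adjusted p = 0.0021; 1.12 in libraries 3 and 4 and 0.66 in libraries 1 and 2). Among 17 genes of amino acid sensing upstream of mTORC1, 6 rose and 4 fell in ERDD against ERAA. SESN1, a relative of SESN2, averaged 52.8 CPM in ERDD and 79.5 in ERAA (-0.59 ± 0.05, adjusted p = 2.5e-05), and 42.9 CPM in PHF8 and 24.9 in wt (0.80 ± 0.14, adjusted p = 0.0019; 0.52 in libraries 3 and 4 and 1.08 in libraries 1 and 2), where 3 of the 17 rose and 3 fell.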

How the data were processed

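The authors deposited RPKM values per gene and library, with hg38 coordinates. STAR 2.7.0c, SAMtools 1.9 and DESeq2 were used, per the submitters' processing notes; which tool counted reads, and with what strand setting, is not given in the sources used here. Deposited RPKM multiplied by the gene's full span gave whole reads within 0.001 reads for 100% of values, and CPM was taken as RPKM times that span in kilobases. Spans include introns, and overlapping genes share reads. Values were tested as log2(CPM + 0.5) with limma 3.58.1 (R 4.3.3, intensity trend), which understates changes of low genes. A gene was tested if 4 or more libraries (first experiment, 13683 genes) or 2 or more (ER lines, 13831 genes) held 1 CPM, and p was adjusted over all tested; group was the only term. The fit was tried on simulated data without library pairs, so that trial does not cover them.

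The members, roles and lists were chosen with earlier results of these data known. Per-library values and full statistics are given for members called without overlap (at most 12 per comparison by smallest p), and ATF4, EIF2AK3, EIF2AK4 and EIF2S1 always; values printed for further members were chosen after they were seen. Per-gene deviations of same-numbered libraries of different lines correlated at 0.484 to 0.908 in the first experiment (12 pairs of libraries, median 0.637). Differently numbered libraries of the same library pair correlated nearly as highly, at 0.235 to 0.819 (median 0.569). The numbers were taken as pairing and blocked values are given, but these correlations do not show that equal numbers share more than their library pair. For same-numbered libraries of the ER lines the correlation was -0.336 to 0.104. ER replicates differed by 1.86 to 15.4 times the counting variance, and 0 libraries were merged. Alternatives were other pseudocounts, no filter, median-ratio scaling, voom weights, 2 groups only, the replicate block, leaving out libraries and the library pairs. Sequences are from RefSeq (GRCh38.p14), with exons from GENCODE; gene names are used as deposited. Promoter windows were not used here for INHBE, NUPR1, EIF4EBP1, GPT2, PYCR1 and SLC7A11. 1 marker gene is not reported here.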

Additional observations from a re-analysis of the deposited data

Results flagged for a closer look

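Of 117 sets of 4 libraries (39 genes in 3 lines), 4 held a library far from the other 3, where chance alone flags about 1 in 20 sets. CTH had 0.951 CPM in wt library 1, against 1.08 to 1.11 in the others. CBS had 5.77 CPM in F279S library 3, against 4.28 to 4.48. SLC7A1 had 153 CPM in PHF8 library 1, against 139 to 141. SLC38A2 had 125 CPM in F279S library 2, against 138 to 141.

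For 18 genes the change of PHF8 against wt differed between the library pairs by the interaction term of limma, adjusted over all genes. By the same term 16.1% of all 13683 genes tested were called higher in libraries 3 and 4 and 14.4% lower. The difference, as the log2 change in libraries 3 and 4 minus that in libraries 1 and 2, was positive for SLC7A5 (0.94), ATF5 (0.60), SLC7A11 (0.59), EIF2S1 (0.59), SLC7A1 (0.53), SLC3A2 (0.52), PYCR1 (0.41), ALDH18A1 (0.37), SLC1A5 (0.36), SLC43A1 (0.36) and XPOT (0.21). It was negative for CHAC1 (-1.22), KLHL24 (-1.18), INHBE (-0.88), SESN2 (-0.70), VLDLR (-0.46), DDIT3 (-0.38) and PCK2 (-0.30). Of the 9 transporters, 6 are in the first group and 0 in the second. The change had opposite signs, each called in a fit of its pair alone, for SLC7A1, with 0.25 in libraries 3 and 4 and -0.27 in libraries 1 and 2, for SLC3A2 (0.37 and -0.15), for EIF2S1 (0.37 and -0.21) and for PYCR1 (0.20 and -0.21). It also had opposite signs, with only 1 of the pairs called, for ATF5 (0.58 and -0.02), DDIT3 (-0.30 and 0.07), VLDLR (-0.16 and 0.30), ALDH18A1 (0.32 and -0.05) and XPOT (0.17 and -0.03). Leaving out 1 library ended the call of DDIT3 (any but F279S 1 or 2 or wt 4, adjusted p from 0.052 to 0.16), CHAC1 (any PHF8 library or wt 1, 2 or 4, 0.057 to 0.15), INHBE (PHF8 1, 3 or 4 or wt 1 or 3, 0.051 to 0.1), SLC7A11 (PHF8 2 or 3 or wt 2, 0.053 to 0.073), PCK2 (wt 2, 0.056) and XPOT (PHF8 2 or 4, F279S 3 or 4 or any wt library, 0.051 to 0.14). The call of CHAC1 also ended with a pseudocount of 0.1 (adjusted p = 0.069), no filter (0.09) or voom weights (0.061). That of DDIT3 also ended with no filter (0.066) or median-ratio scaling (0.057). CHAC1 and INHBE were low, with as few as 16 and 8 reads in a library. Sequencing depth moves with the pairs, at 20.8 to 51.5 M reads in libraries 3 and 4 and 18.2 to 24.3 M in libraries 1 and 2, and its part was not tested.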

How the results depend on the processing

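With 2 libraries per ER line and clear library pairs in the first experiment, p-values measure the spread between these libraries. No direction of a called member was reversed by any alternative run. In the ER lines, leaving out 1 library gave 32 to 34 members called in ERDD against ERAA, 21 to 27 in ERPHF8 against ERAA and 29 to 31 in ERDD against ERPHF8; a line's lone library is then assumed to vary like the others, and the genes called in all dropped from 7436 to 4863 (ERPHF8 against ERAA, without ERPHF8 library 2) and from 7305 to 4306 (ERDD against ERPHF8, without ERDD library 2). In PHF8 against wt, 8 members (2874 genes in all) were called, 18 with the replicate block (5670 genes) or with library pair as a factor (5595), 24 when fitted on the first pair, libraries 1 and 2 (7029), 21 on the pair of libraries 3 and 4 (5765), 6 with pairs averaged (1775), a setting chosen after seeing the data, and 5 to 8 without 1 library (5 without PHF8 library 1 or 2). In PHF8 against F279S, 11 members (2750 genes) were called, 19 with the replicate block (5620) or pair as a factor (5565), 26 on libraries 1 and 2 (7366), 19 on libraries 3 and 4 (4821), 6 with pairs averaged (1594) and 7 to 11 without 1 library (7 without F279S library 2). In F279S against wt, 0 members (2 genes) were called, 2 with the replicate block or pair as a factor (298 genes each), 8 on libraries 1 and 2 (1943), and 0 on libraries 3 and 4 (12), with pairs averaged (1) or without any 1 library. For the library pairs, 21 members (8602 genes in all) were called, and 19 to 20 without 1 library (7744 to 8921 genes). For the difference of PHF8 against wt between the pairs, 18 members (4179 genes) were called over all libraries. Leaving out 1 library there leaves 1 library in a pair of a line, and the calls that ended are named above. In the ER lines the block ended 1 call, that of NFIL3, and the numbers there pair no libraries. The cause of these moves was not tested.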
